A study of Mus musculus with 6 samples.

Results

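The mitochondrial ribosomal proteins are taken here as all gene symbols in the count files that match Mrpl or Mrps followed by a number. The rule found 78 of the 26264 listed genes, 49 named Mrpl and 29 named Mrps, and it used no measured value. The cells were immortalized brown preadipocytes from the stromal vascular fraction of mice with a Bl6N wild-type background, treated with 5.5 nM FGF8 for 48 h or left untreated and then harvested at day 0, day 3 or day 9. All groups shared this 1 cell line, which carries the SV40 large T antigen, and the cells of days 3 and 9 had passed through the adipogenic induction medium. The last libraries are labelled by their 7 days on differentiation medium, which follow 2 days of induction. Each of the 6 conditions is 1 library, so within a day the FGF8 and untreated libraries are compared without a replicate check and without a p-value.

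Mitochondrial ribosomes translate the few messages encoded in mitochondrial DNA, all of which give core subunits of the respiratory chain and ATP synthase. Their RNA is made in the mitochondrion, but every protein of both subunits is encoded in the nucleus, made on cytosolic ribosomes and imported. Brown adipocytes are rich in mitochondria and gain them as they differentiate, while FGF8 is a paracrine growth factor that signals through FGF receptors. The mitochondrially encoded messages themselves were not analysed here.

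The libraries held between 16403254 and 38551551 counts, and counts were divided by DESeq2 size factors computed over all 6 libraries, which gives the normalized counts used throughout. Markers were checked against the label. The summed normalized counts of 10 brown adipocyte markers lay at 8891 and 3857 in the untreated and FGF8 libraries of day 0 and between 353873 and 695681 at later days. The macrophage markers Adgre1 and C1qa and the muscle markers Myod1 and Myh3 had 0 counts in every library. The sums over the 8 macrophage and 5 muscle markers ran from 61.5 to 156 and from 7.34 to 1227 normalized counts. Most of the muscle sum was Des, with 7.34, 82.7 and 649 normalized counts in the untreated libraries of days 0, 3 and 9. In the FGF8 libraries Des had 8.96, 184 and 1178 normalized counts. Acta1 reached 48.8 and the macrophage marker Cd68 101 normalized counts, both in the FGF8 library of day 9. The growth protocol filed with the samples describes primary white preadipocytes, whereas titles and cell type fields name immortalized brown cells, which is the naming kept here.

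All 78 genes are present in the GENCODE M39 annotation of GRCm39 as protein-coding genes spread over 17 chromosomes. A feature that some of them share is a close neighbour that starts on the opposite strand. For 14 members (17.9%) the start site of another protein-coding gene lay within 1000 bp in a head-to-head arrangement, against 1039 of 19091 protein-coding genes (5.4%). The share among expressed genes alone was not counted. The shortest gap, of 7 bp, lies between Mrpl14 and Tmem63b. In 1 case both genes are members, Mrpl46 of the large and Mrps11 of the small subunit, whose start sites are 30 bp apart on chromosome 7. The stretches between the start sites of 4 such pairs are printed because both genes of a pair are measured below and in 3 of the pairs the partner is not a ribosomal gene. Each is the GRCm39 sequence between the starts of the canonical transcripts on the strand of the first gene, 5′ to 3′, and capitals mark a match, on either strand, to the NRF1 motif described in the next paragraph.
Mrpl46 with Mrps11, chr7:78432838-78432866, minus strand: gcccctcgccggcccgcgttgcctcatgg
Mrpl10 with Lrrc46, chr11:96932263-96932371, plus strand: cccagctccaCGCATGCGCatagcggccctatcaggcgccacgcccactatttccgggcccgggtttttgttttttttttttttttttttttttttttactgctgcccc
Mrpl30 with Mitd1, chr1:37929498-37929557, plus strand: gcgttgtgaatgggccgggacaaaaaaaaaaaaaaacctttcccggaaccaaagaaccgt
Mrpl32 with Psma2, chr13:14787751-14787803, minus strand: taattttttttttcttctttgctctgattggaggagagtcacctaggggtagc

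Promoter windows of 300 bases, from 250 before to 50 after the canonical start in GRCm39, were searched on both strands for the letters of motifs known from nuclear genes for mitochondria. The NRF1 motif GCGCANGCG was present in 16 of 78 members (20.5%), against 8.4% of the 19091 protein-coding promoters and 12% of the 12318 whose gene averaged 20 normalized counts or more. The ETS motif CCGGAAG, which GABP and other ETS factors bind, was present in 24 members (30.8%), against 11.1% and 15.4%. The YY1 motif AANATGGCG was in 7 members (9.0%), against 2.5% and 3.5%. At least 1 of these motifs was found in 39 of the 78 promoters (50%), against 27.4% of the expressed genes. The E-box CACGTG, the letters that MYC binds, went the other way, with 5 members (6.4%) against 8.4% and 9.9%. Median GC content was 57.5% in the members and 58.3% in the expressed genes. A match describes the letters only, and no binding was measured.

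All members were detected in every library, the lowest count of any being 64, and all passed the filter on low values. The median member had 756, 1002 and 1535 normalized counts in the untreated libraries of days 0, 3 and 9, and 978, 1805 and 1791 in the FGF8 libraries. None of the 78 had its highest level in an untreated library. For 41 it was the FGF8 library of day 9, for 33 that of day 3 and for 4 that of day 0, while 54 had their lowest level in the untreated library of day 0. The order of members by level depended on the length used. Per kilobase of exon of the canonical transcript, Mrpl42, Mrpl20, Mrpl13, Mrps6 and Mrpl34 were highest and Mrpl55, Mrpl48, Mrpl17, Mrps28 and Mrps25 lowest by their mean over the 6 libraries. Mrpl42 had a mean of 5149.6 and Mrpl55 of 171 normalized counts per kilobase of exon. Per kilobase of coding sequence, only 1 of those 5 highest stayed in the highest 5 (Mrpl42) and 0 of the 5 lowest stayed in the lowest 5, so apart from Mrpl42 the order between genes is not firm. Exon overlaps also bear on single values. The exons of 38 members overlap a gene on the opposite strand and 5 overlap a gene on the same strand, such as Mrps6, which shares 404 bp with Slc5a3.

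**Figure D1:**
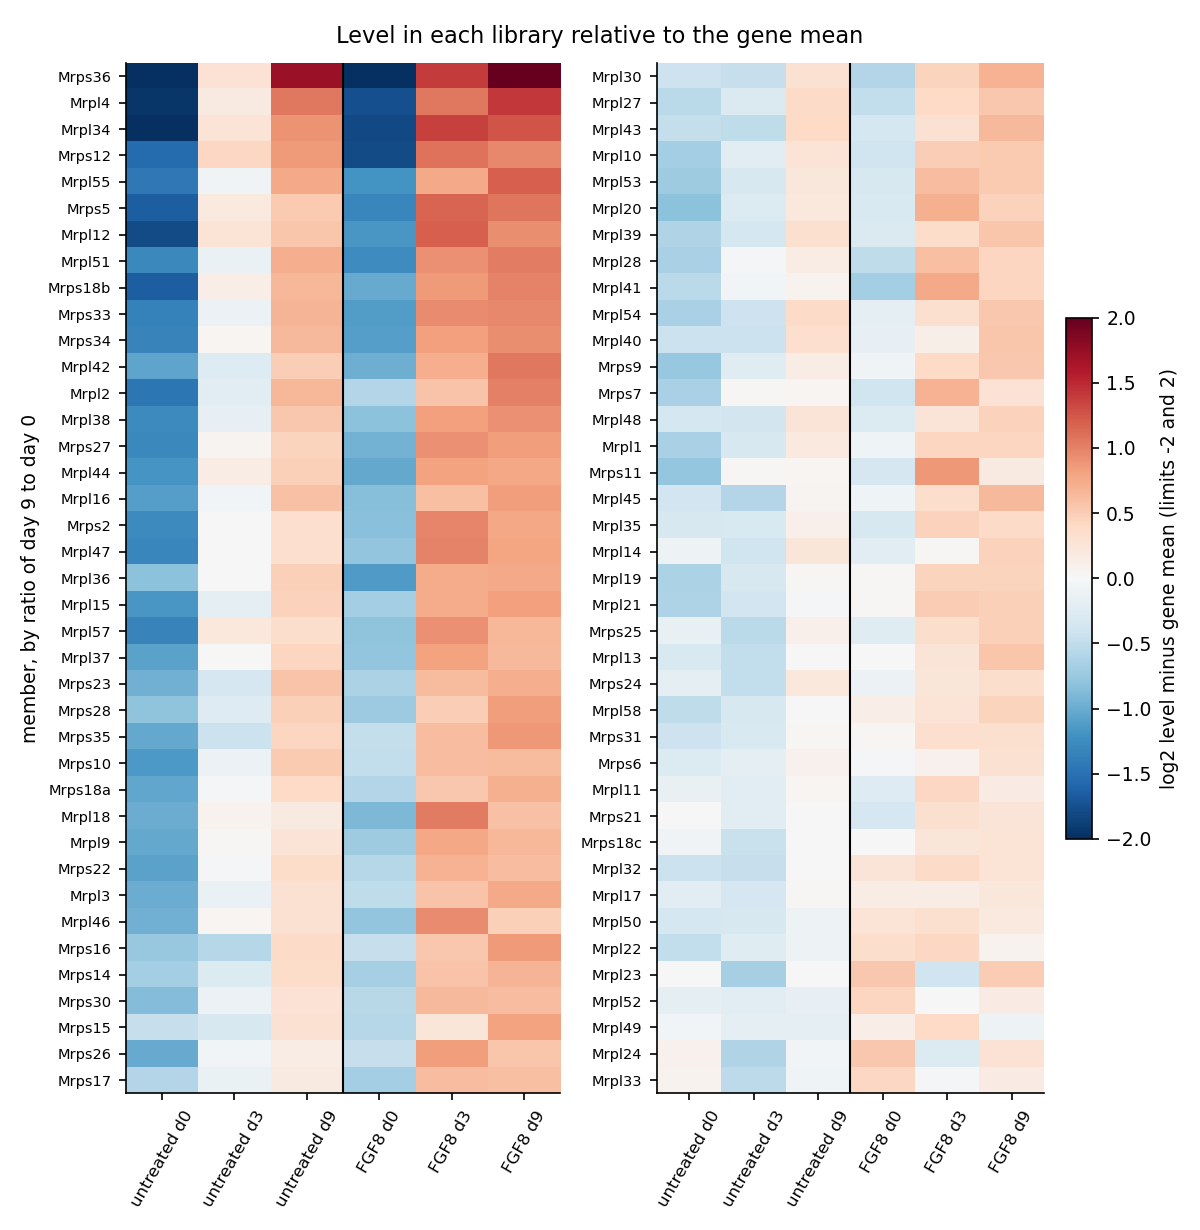
Heat map of the 78 mitochondrial ribosomal protein genes (rows, ordered by the ratio of their day 9 to their day 0 levels) in the 6 libraries (columns, d for day, untreated left and FGF8 right of the line), coloured by log2(normalized count + 1) minus the mean of the gene, with colours limited to -2 and 2. The FGF8 libraries of days 3 and 9 hold the highest level of 74 members, and the rows at the top, led by Mrps36, span the widest range.

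Whether cells that had met FGF8 carried more mitoribosomal transcripts was asked at each day. Day 3 gave the clearest difference: all 78 members were higher in the FGF8 than in the untreated library, by a median log2 fold change of 0.75, and 68 were at least 1.5-fold higher. Over all 12892 genes compared at that day, the median was 0.081 and 55.5% were higher. Of them 15.6% were at least 1.5-fold higher and 19.8% at least 1.5-fold lower. At day 0, directly after the treatment, 68 members were higher, by a median of 0.30 (all genes 0.054), and 12 were at least 1.5-fold higher and 0 lower, against 16.9% and 17.8% of all genes, so the share of members past the fold (15.4%) was near the background. At day 9 all 78 were again higher, by a median of 0.30 (all genes 0.083), but only Mrpl45 passed 1.5-fold, against 5.95% of all genes higher and 14.4% lower. Regardless of size, 54.1% of all genes compared were higher at day 0 and 59.2% at day 9. In all, 68 of 78 members were higher in the FGF8 library on all 3 days, as were 33.0% of the 11813 genes that could be compared on each day. The untreated and FGF8 libraries of a day differ in more than these genes. All 10 brown adipocyte markers had a higher value after FGF8 at day 3 (median log2 fold change 0.87, 8 at least 1.5-fold). At day 0 only 6 could be compared and 2 of them were higher (median -0.57). Those 2 were Ucp1, at 0 untreated against 1328 normalized counts after FGF8, and Fabp4, at 165 against 178. At day 3 Ucp1 was at 319 against 4287 normalized counts. At day 9, 9 of the 10 were higher, by a median of 0.24. Of 8 proliferation markers 7, 8 and 8 were higher at days 0, 3 and 9, by medians of 0.39, 0.39 and 0.34. Of 6 preadipocyte markers 1, 0 and 0 were higher at days 0, 3 and 9, and the medians were -1.27, -1.83 and -2.04. The 1 higher at day 0 was Thy1, at 2773 against 4427 normalized counts (log2 fold change 0.67). The 2 muscle markers above the filter, Des and Acta1, were higher at days 3 and 9, by medians of 1.10 and 0.60. The part of these markers in the result was not tested, and in bulk RNA a larger share of such cells and more RNA per cell cannot be told apart.

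**Figure D2:**
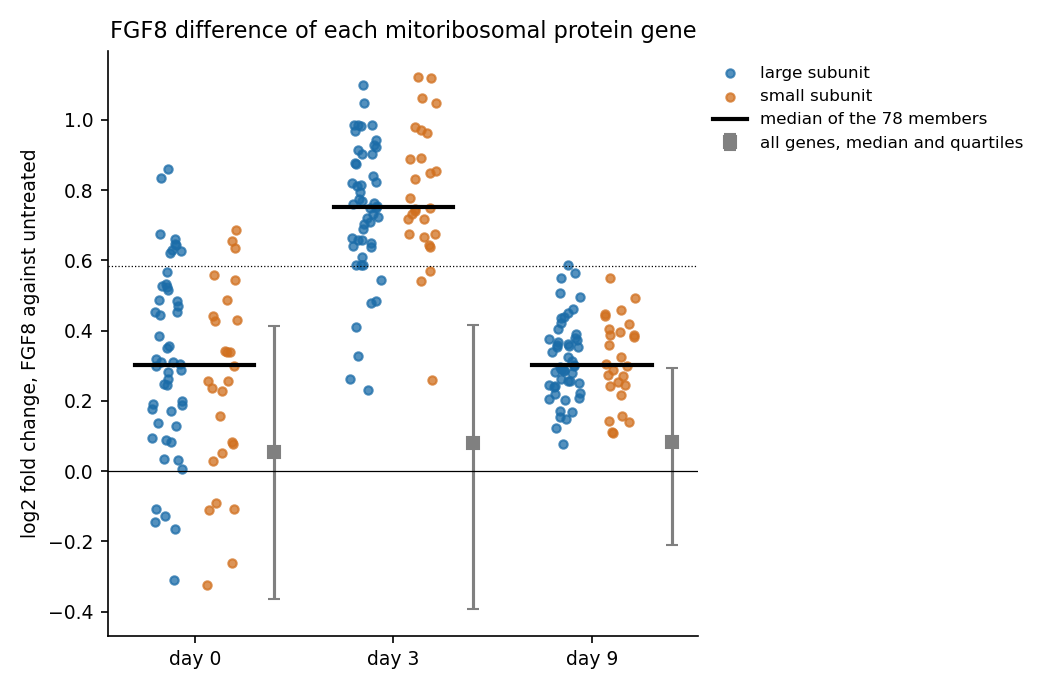
Log2 fold change of FGF8 against untreated for each of the 51 large subunit and 27 small subunit members at days 0, 3 and 9 (points), with the median of the 78 (black line), the median and quartiles of all genes compared (grey) and the 1.5-fold line (dotted). The points lie above 0 on days 3 and 9 for all 78 members, spread most widely at day 0 (SD 0.27) and least at day 9 (SD 0.12).

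At day 3, 6 of the 78 members were at least 2-fold higher, as were 490 of all 12892 genes compared. Of these 6 members, 4 carry names of the small subunit. Mrps16, a conserved protein of the small subunit body, had 846, 959.6 and 1869.7 normalized counts in the untreated libraries of days 0, 3 and 9 and 1041, 2084 and 2571 in the FGF8 libraries. Its FGF8 value was thus above the untreated one on each day, and at day 3 the log2 fold change was 1.12 with a counting interval (95% exact binomial interval of the ratio of the counts, counting error only) of 1.00 to 1.24. Mrps36 was at 829 against 1803 normalized counts on that day, a log2 fold change of 1.12. This gene carries a ribosomal name, but its protein is known as a subunit of the 2-oxoglutarate dehydrogenase complex. Mrpl34, a small basic protein of the large subunit, was at 1058 against 2265 normalized counts (1.10, interval 0.99 to 1.21). Mrps33, found only in mitochondrial ribosomes, was at 461 against 964 normalized counts (1.06, interval 0.90 to 1.24). Mrpl51 (1.05) and Mrps35 (1.05) were the others past 2-fold. At the other end stood Mrpl52, Mrps6, Mrpl23 and Mrpl24, with log2 fold changes of 0.23, 0.26, 0.26 and 0.33. Mrpl23 and Mrpl24 belong to the proteins around the exit of the peptide tunnel. Mrpl23 had 201 against 241 normalized counts (interval -0.012 to 0.55) and Mrpl24 633 against 794 normalized counts (interval 0.17 to 0.48), so for Mrpl23 the interval of the day 3 difference included 0, the only member for which it did. The members nearest the 1.5-fold line were Mrpl58 inside it (log2 fold change 0.59) and Mrps15 outside (0.57).

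At day 0 the members diverged more. Summed normalized counts of 5 endothelial markers were 1625 in the untreated library of that day and between 37.4 and 219 in the other 5. Kdr (1288) and Tek (326) made up nearly all of the 1625. Pecam1, Cdh5 and Vwf had at most 4.41 normalized counts there and at most 12.8 in any library. The part of these markers in the day 0 differences was not tested. Mrpl2 (chr17:46957117-46961065 in GRCm39, plus strand), which lines the peptidyl transferase centre, was highest, with 467, 1089 and 2007 normalized counts in the untreated libraries of days 0, 3 and 9 and 849, 1889.6 and 2562 in the FGF8 libraries. At day 0 this was 1.82-fold, a log2 fold change of 0.86 (0.67 to 1.06), and the difference shrank to 0.35 at day 9. Mrpl22, another protein of the exit tunnel, followed at 382 against 682 normalized counts (0.84, interval 0.62 to 1.06), then Mrps9 at 943 against 1518 normalized counts (0.69) and Mrpl32, which the m-AAA protease must process before it can enter the ribosome, at 743 against 1187 normalized counts (0.67). Of all genes compared at day 0, 54.1% were higher in the FGF8 library, and how many had counting intervals off 0 was not counted. The interval counts of the members thus have no background beside them. In all, 10 members were lower in the FGF8 library. For 3 of them the counting interval lay wholly below 0, against 48 members with an interval wholly above 0. Those 3 were Mrps21 at 974 against 777 normalized counts (-0.33, interval -0.49 to -0.16), Mrpl36 at 508 against 409.7 normalized counts (-0.31, interval -0.53 to -0.088) and Mrpl30 at 2175 against 1941 normalized counts (-0.16, interval -0.27 to -0.06). Mrps12, of the decoding centre, was lower by more than Mrpl30, at 131 against 109 normalized counts, but its interval of -0.71 to 0.18 included 0. The neighbours of the 1.5-fold line were Mrpl52 (0.62) and Mrpl1 (0.57).

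By day 9 the differences had drawn together, from 0.078 for Mrpl49 to 0.59 for Mrpl45. The quartiles of all genes narrowed too, from -0.39 and 0.42 at day 3 to -0.21 and 0.29 at day 9. Counting error of the members was also smallest at day 9, where the median half-width of their intervals was 0.087. Mrpl45 (chr11:97206542-97232865, plus strand), which lies at the tunnel exit and ties the ribosome to the inner membrane, had 1739, 1521 and 2377 normalized counts in the untreated libraries of days 0, 3 and 9 and 2148, 2893 and 3574 in the FGF8 libraries. Its level was lowest in the untreated library of day 3 and highest in the FGF8 library of day 9, and the day 9 log2 fold change was 0.59 (0.52 to 0.65). Mrpl42 (0.56), Mrpl13 (0.55) and Mrps5 (0.55) came next and lay just under 1.5-fold. The smallest differences were those of Mrpl49, Mrps10, Mrps12 and Mrpl11. Mrpl49 had 1645 against 1737 normalized counts (interval -0.0071 to 0.16) and Mrps12 690.0 against 745 normalized counts (interval -0.02 to 0.24). The order of the members by the size of their FGF8 difference was not the same on each day. Over the 78 members Spearman's rho between the log2 fold changes was -0.0063 for days 0 and 3, 0.37 for days 3 and 9 and 0.18 for days 0 and 9, given as a description over genes that share their libraries. Over the 11813 genes compared on all days these values were 0.40, 0.69 and 0.38. For 71 members the difference was largest at day 3 and for 7 at day 0.

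Whether an FGF8 effect common to the days differed from 0 was asked with the quasi-likelihood test of edgeR. Whether the effect was alike on all days was not tested. The days take the place of replicates there, so any response that varies from day to day enters the error. All 78 fitted log2 fold changes were positive, with a median of 0.44, but 0 members passed an adjusted p of 0.05. Of all 14569 genes tested, 1.27% were called in either direction. At an unadjusted p under 0.05 there were 45 of 78 members, all higher, beside 3389 of the 14569 genes, 1506 of them higher. DESeq2's Wald test called 14 members higher (17.9%) and 0 lower, against 2.38% of all genes higher and 6.15% lower. The calls of edgeR changed with the libraries of day 0 for members and for all genes. Without both of them 26 members were called higher (33.3%), against 3.96% of all genes higher and 11.6% lower. Without either one alone the comparison again rests on days 3 and 9, because a day with 1 library holds no FGF8 difference. Those fits were therefore no separate check. Leaving out day 3 or day 9 gave 0 calls among members and among all genes. The smallest p-values belonged to Mrpl21 with a log2 fold change of 0.65 (SE 0.13, adjusted p = 0.097), Mrpl19 with 0.60 (SE 0.13, adjusted p = 0.11) and Mrps9 with 0.55 (SE 0.12, adjusted p = 0.11), by edgeR with Benjamini-Hochberg adjustment. Mrpl21 had 726, 857 and 1099.5 normalized counts in the untreated libraries of days 0, 3 and 9 and 1134, 1574 and 1550.3 in the FGF8 libraries, so the FGF8 value was the higher one on each day, by log2 fold changes of 0.64, 0.88 and 0.50. Over the alternatives its adjusted p ranged from 0.012 to 0.9998.

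Most of the set rose in the course of differentiation. In the fit with treatment as a block, 45 of 78 members rose from day 0 to day 3 and 2 fell (edgeR, adjusted p under 0.05), with a median log2 fold change of 0.92, while 26.2% of all genes were called higher and 19.8% lower. From day 0 to day 9, 58 members rose and 0 fell, with a median of 1.04, against 29.2% and 24.8% of all genes. From day 3 to day 9, 0 members were called, and 0.0618% and 0.00686% of all genes were called higher and lower. At an unadjusted p under 0.05 there were 12 of 78 members, beside 3110 of the 14569 genes, and DESeq2's Wald test called 1 member (1.28%), against 4.29% of all genes higher and 2.36% lower. Single libraries carried much of these counts. Without the FGF8 library of day 3 the rises to day 3 went from 45 to 8 (10.3%, against 6.25% of all genes), without the untreated library of day 9 the rises to day 9 went from 58 to 25 (32.1%, against 12.9%), and without the FGF8 library of day 9 they went to 32 (41.0%, against 13.1%). Leaving out either library of day 0 gave 10 members higher from day 3 to day 9 (12.8%). Of all genes, 10.8% were called higher without the untreated and 10.6% without the FGF8 library, near that share. Both fits compare the same libraries of days 3 and 9, so they are not separate checks.

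The steps differed in size between untreated and FGF8 cells. In untreated cells the median log2 fold change of the members was 0.54 from day 0 to day 3 and 0.46 from day 3 to day 9, and 59 members were higher at each step, while 19 had their lowest level at day 3. In FGF8 cells the median was 1.10 for the first step and 0.057 for the second, with 41 members higher at each step and 33 with their highest level at day 3. The median of the second step in FGF8 cells changed sign, to -0.014, when libraries were scaled by total counts. Day 9 against day 0 gave medians of 0.99 and 1.12. The FGF8 library of day 3 was level with or above the untreated library of day 9 for 66 of the 78, by a median log2 difference of 0.26. With 1 library per condition these differences between treatments were not tested.

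**Figure D3:**
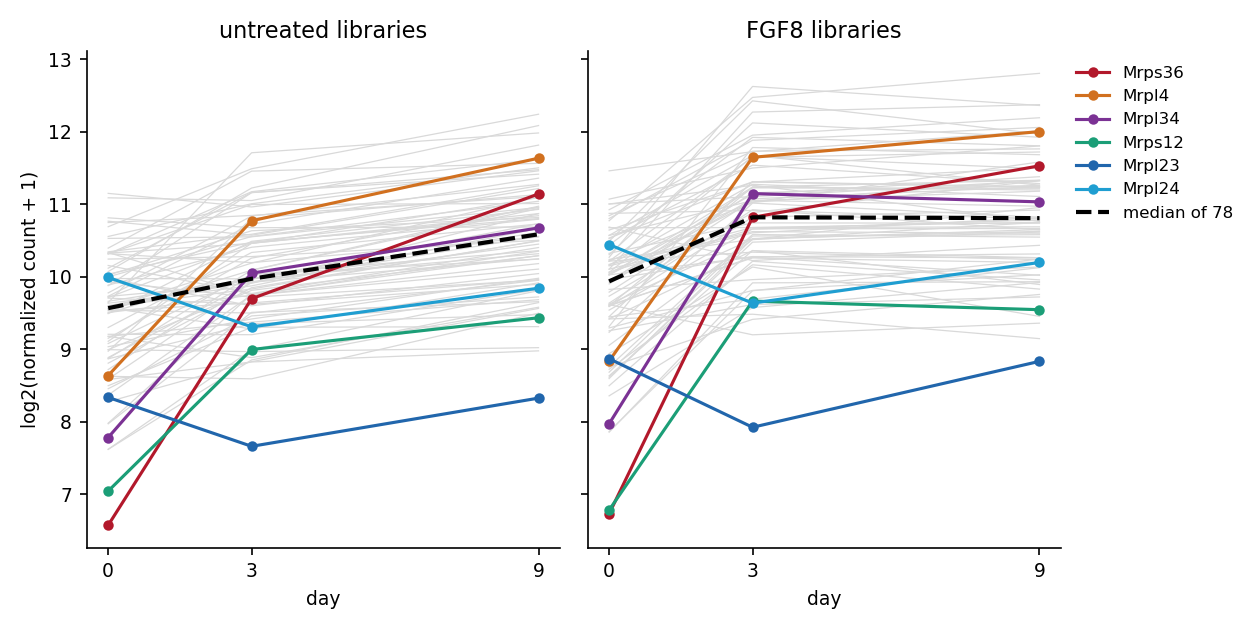
Log2(normalized count + 1) of each member (grey lines) over days 0, 3 and 9 in untreated (left) and FGF8 (right) libraries, with 6 members in colour and the median of the 78 dashed. The median line climbs at both steps in untreated cells (median log2 fold changes 0.54 and 0.46) and mostly at the first in FGF8 cells (1.10 and 0.057, the last turning to -0.014 with total counts), while Mrpl23 and Mrpl24 dip at day 3 in both.

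A few genes had profiles far from the median profile of the set. Mrps36 (chr13:100872116-100881584 in GRCm39, minus strand) was the most distant, with 94, 829 and 2257 normalized counts in the untreated libraries of days 0, 3 and 9 and 105, 1803 and 2954 in the FGF8 libraries. It had the lowest normalized count of all members at day 0 in both treatments, and its rise to day 9 had a fitted log2 fold change of 4.74 (SE 0.30, adjusted p = 0.0017). Mrpl4 (chr9:20914018-20920537, plus strand), a conserved protein of the large subunit, had 397, 1746 and 3178 normalized counts in the untreated libraries of days 0, 3 and 9 and 456, 3204 and 4099.7 in the FGF8 libraries, and both day 0 values lay below the other 4. It rose by 3.12 (SE 0.22, adjusted p = 0.0018) to day 9. Mrpl34 (chr8:71917555-71918396, plus strand) rose by 3.02 (SE 0.27, adjusted p = 0.0024) from 219 and 249.6 at day 0 to 1630.5 and 2093 at day 9. Its exons overlap 537 bp of the opposite-strand gene Gm64263. Mrps12 (chr7:28439066-28441680, minus strand) had 131, 509 and 690.0 untreated and 109, 809 and 745 after FGF8, in normalized counts, and rose by 2.62 (SE 0.28, adjusted p = 0.0033). Mrpl12 (chr11:120375430-120381396, plus strand), the stalk protein that recruits translation factors, was among the 5 members with the largest called rises to day 3 and rose by 2.28 (SE 0.19, adjusted p = 0.0031) from 798 and 1232 to 3347 and 6311 normalized counts in untreated and FGF8 cells. Its calls for day 3 and for day 9, and those of the 4 genes before it, held in all 10 alternative fits.

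Mrpl23, also among the 5 profiles farthest from the median, went the other way. It (chr7:142086423-142094486, plus strand) had 322, 201 and 319 normalized counts in the untreated libraries of days 0, 3 and 9 and 466, 241 and 454 in the FGF8 libraries, with both day 3 values below all others, and it fell by 0.75 on the log2 scale to day 3 (SE 0.23, edgeR adjusted p = 0.047). By day 9 the fitted difference from day 0 was 0.018 (SE 0.22, adjusted p = 0.95). Mrpl24 (chr3:87826798-87832192, plus strand) had 1015, 633 and 916 untreated and 1390.3, 794 and 1171 after FGF8, in normalized counts, and fell by 0.68 (SE 0.16, adjusted p = 0.023). The 2 calls are not firm: without the untreated or the FGF8 library of day 3, or either of day 9, 0 members were called lower, and without the FGF8 library of day 0, 1 was. The exons of Mrpl24 overlap 1019 bp of Mettl25b on the opposite strand. Mrpl33 and Mrpl52 did not pass the test, with day 3 to day 0 fits of -0.46 (SE 0.15, adjusted p = 0.057) and -0.16 (SE 0.19, adjusted p = 0.52). For Mrpl49, head to head with the cytosolic ribosomal protein gene Fau across 52 bp, the 6 values were 1796, 1634 and 1645 untreated and 2049.6, 2454 and 1737 after FGF8, and the day 9 to day 0 fit was -0.14 (SE 0.17, adjusted p = 0.52).

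Both subunits took part. Mrps36 is counted by its name with the small subunit and among the members specific to mitochondria, although its protein belongs to the dehydrogenase complex named above. For the 51 proteins of the large subunit, counting Mrps30 and Mrps18a, which sit there, the median log2 fold changes of FGF8 against untreated were 0.31, 0.76 and 0.30 at days 0, 3 and 9, and for the 27 others, counted with the small subunit by name, they were 0.26, 0.75 and 0.31. From day 0 to day 9, 37 of 51 and 21 of 27 rose (edgeR), with medians of 0.95 and 1.26, and 0 of either fell. The ratio of large to small subunit counts was 2.35 and 2.46 at day 0 and between 2.18 and 2.2 in the 4 later libraries. The small subunit counts include Mrps36, which had the largest fitted rise to day 9 of all members. The ratio without Mrps36 was not calculated, so it gives no measure of the balance of the subunits. The 48 members with a counterpart in bacterial ribosomes and the 30 that are specific to mitochondria had medians of 0.75 and 0.82 at day 3, and 34 of 48 and 24 of 30 rose to day 9. Among the 3 paralogs that share one bacterial ancestor, Mrps18b rose to day 9 by 2.20 (SE 0.18, adjusted p = 0.0021) and Mrps18a by 1.41 (SE 0.15, adjusted p = 0.0032), whereas for Mrps18c the fit was 0.21 (SE 0.20, adjusted p = 0.4). Mrps18b went from 251 and 390.5 normalized counts at day 0 to 1251 and 1568 at day 9, and Mrps18c from 1005 and 1041 to 1053 and 1271. Mrps18c overlaps 2388 bp of Abraxas1 on the opposite strand.

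The head-to-head partners allow a look at the other side of the shared promoters. Mrpl46, 30 bp from Mrps11, had 349.6, 703 and 843 normalized counts in the untreated libraries of days 0, 3 and 9 and 396, 1314 and 949 in the FGF8 libraries. Mrps11 had 359.9, 630.0 and 634 untreated and 489, 1122 and 699 after FGF8, in the same order of libraries. Their FGF8 log2 fold changes at day 3 were 0.90 and 0.83, and both rose to day 9, by 1.31 (SE 0.24, adjusted p = 0.011) and 0.71 (SE 0.22, adjusted p = 0.042), though the call of Mrps11 held in only 2 of 10 alternative fits and that of Mrpl46 in 9. Of the 12 partners that are not mitoribosomal, 9 had the higher value after FGF8 at day 3, with a median log2 fold change of 0.42. All 12 of their members did, with a median of 0.73. Of all genes compared, 55.5% were higher at day 3, and whether the partners exceed that share was not tested. Some pairs parted. Mitd1, across 61 bp from Mrpl30, went from 2339.9 normalized counts untreated to 1171 after FGF8 at day 0, and lay between 663 and 780.2 at later days, and fell to day 9 (edgeR adjusted p = 0.02), whereas Mrpl30 rose by 1.02 (SE 0.27, adjusted p = 0.03), a call that held in 7 of 10 alternative fits. Psma2, a proteasome subunit across 54 bp from Mrpl32, fell by 0.53 (adjusted p = 0.045). Lrrc46, across 110 bp from Mrpl10, had between 26.7 and 72 normalized counts, where Mrpl10 had between 1503 and 3473. Sars2, the mitochondrial serine tRNA synthetase across 129 bp from Mrps12, rose by 1.90 to day 9 (adjusted p = 0.0066), as Mrps12 did. In all, 6 of the 12 partners were called higher to day 9 and 3 lower, against 8 and 0 of their members. Of all genes tested, 29.2% were called higher and 24.8% lower.

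Other genes of mitochondrial translation, grouped by function, were higher at day 3 as well. At day 3 the FGF8 value was the higher one for all 14 translation factors and all 17 mitochondrial tRNA synthetases. It was also higher for all 25 genes of ribosome assembly and rRNA modification and all 6 of mitochondrial transcription. Of all genes compared that day, 55.5% were higher. Median log2 fold changes at days 0, 3 and 9 were 0.16, 0.81 and 0.32 for the translation factors, 0.21, 0.68 and 0.36 for the synthetases, 0.30, 0.50 and 0.30 for the assembly genes and 0.55, 0.76 and 0.33 for transcription. From day 0 to day 9, 10 of 14, 12 of 17, 14 of 25 and 4 of 6 of them rose and 0 fell (edgeR). Tufm, which brings aminoacyl-tRNA to the ribosome, rose by 3.52 (SE 0.23, adjusted p = 0.0017), and Polrmt, the mitochondrial RNA polymerase, by 2.71 (SE 0.18, adjusted p = 0.0017). Gtpbp10, a GTPase of large subunit assembly, was 1.5-fold or more higher on all 3 days, at 1.29, 0.74 and 0.63. Lars2, the leucine synthetase, stood apart: it had 13033 normalized counts in the untreated library of day 0 and between 2416 and 3427 in the other 5. The 5 mitoribosomal proteins with other names had medians of 0.33, 0.85 and 0.26. Dap3, a GTP-binding protein of the small subunit, had day 3 and day 9 log2 fold changes of 0.37 and 0.26, and 2 of the 5 rose to day 9.

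Of 9 regulators of nuclear genes for mitochondria, 5 rose and 2 fell to day 9. Their FGF8 medians were 0.14, 0.34 and 0.24 at days 0, 3 and 9. Of the 9, 8 were higher at day 3 and 5 at day 9, against 55.5% and 59.2% of all genes. The coactivator Ppargc1a, which is also among the brown adipocyte markers, had 48.5, 951 and 2785 normalized counts untreated and 15.4, 2129.7 and 3755 after FGF8, and rose by 6.69 (SE 0.70, adjusted p = 0.0031). Its relative Ppargc1b rose by 7.54 (SE 0.32, adjusted p = 0.0013) and the nuclear receptor Esrra by 4.58 (SE 0.34, adjusted p = 0.0019). At day 3 the FGF8 differences of these 3 were 1.16, 1.08 and 0.89, and at day 0 they were -1.60, 0.099 and -0.29. Myc was higher in the FGF8 library of day 0 (786 against 1503 normalized counts, 0.93), with 0.34 at day 3 and -0.16 at day 9. Nrf1, whose motif was counted above, was at 0.73, 0.13 and 0.24, Gabpa at 0.30, 0.68 and 0.26, and Yy1 at 0.14, 0.11 and -0.13. The differences of Gabpb1 and Pprc1 were 0.056 and -0.16 at day 3 and -0.036 and -0.19 at day 9. None of the 9 was called for the shared effect of FGF8 in edgeR, where 2 had an unadjusted p under 0.05.

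**Figure D4:**
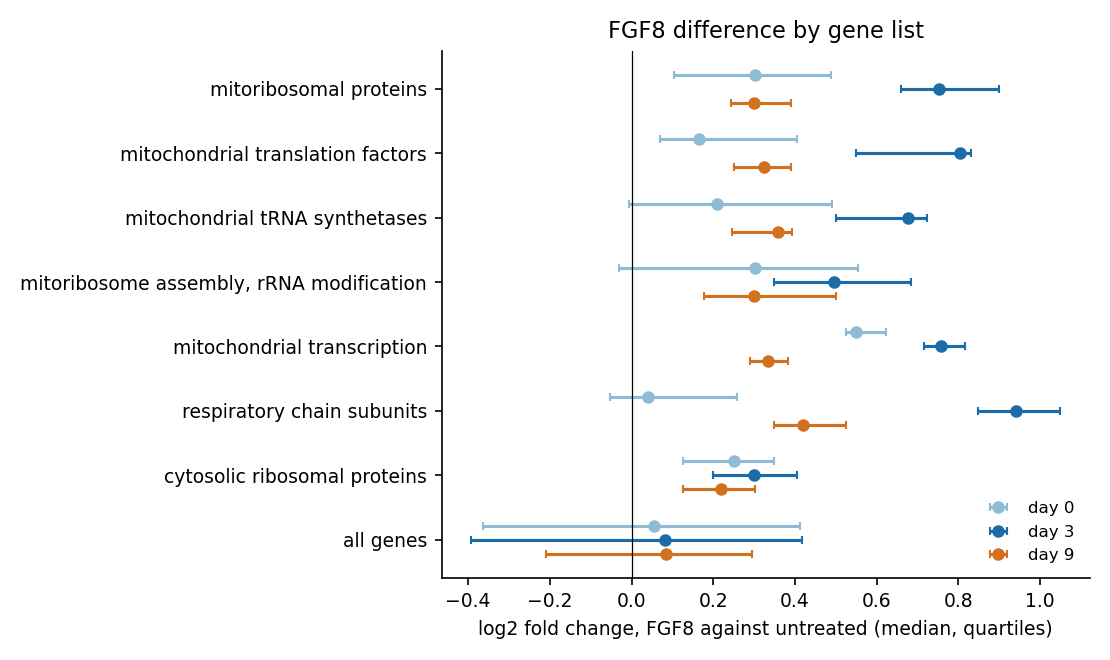
Median (point) and quartiles (bars) of the log2 fold change of FGF8 against untreated at days 0, 3 and 9 for the mitoribosomal proteins, the other lists and all genes compared. Mitoribosomal proteins, translation factors, synthetases and respiratory chain subunits have their highest median at day 3 (0.75, 0.81, 0.68 and 0.94), whereas the cytosolic ribosomal proteins stay between 0.22 and 0.30.

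The set was compared with the cytosolic ribosome, which makes its proteins, and with the respiratory chain, whose core it translates. Cytosolic ribosomal proteins had FGF8 medians of 0.25, 0.30 and 0.22 at days 0, 3 and 9, with 62 of 74 higher on all 3 days, and respiratory chain subunits had 0.041, 0.94 and 0.42, with 47 of 81. At day 0, and narrowly at day 9, the members were thus nearer to the cytosolic ribosome in their median. At day 3 they were nearer to the respiratory chain, and none of this was tested. From day 0 to day 9, 83 of 85 respiratory chain genes rose with a median of 2.39, while of 76 cytosolic ribosomal genes 15 rose and 26 fell with a median of -0.25. The members lay between, at 58 of 78 and 1.04. As a share of all counts, they took 0.265%, 0.379% and 0.486% in the untreated libraries of days 0, 3 and 9 and 0.338%, 0.612% and 0.601% in the FGF8 libraries, where the widest 95% Wilson interval of counting error ran from 0.376% to 0.382%. Cytosolic ribosomal proteins took 2.44% of counts in untreated cells of day 0 and 1.55% at day 9, and respiratory chain subunits 0.826% and 3.52%.

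**Figure D5:**
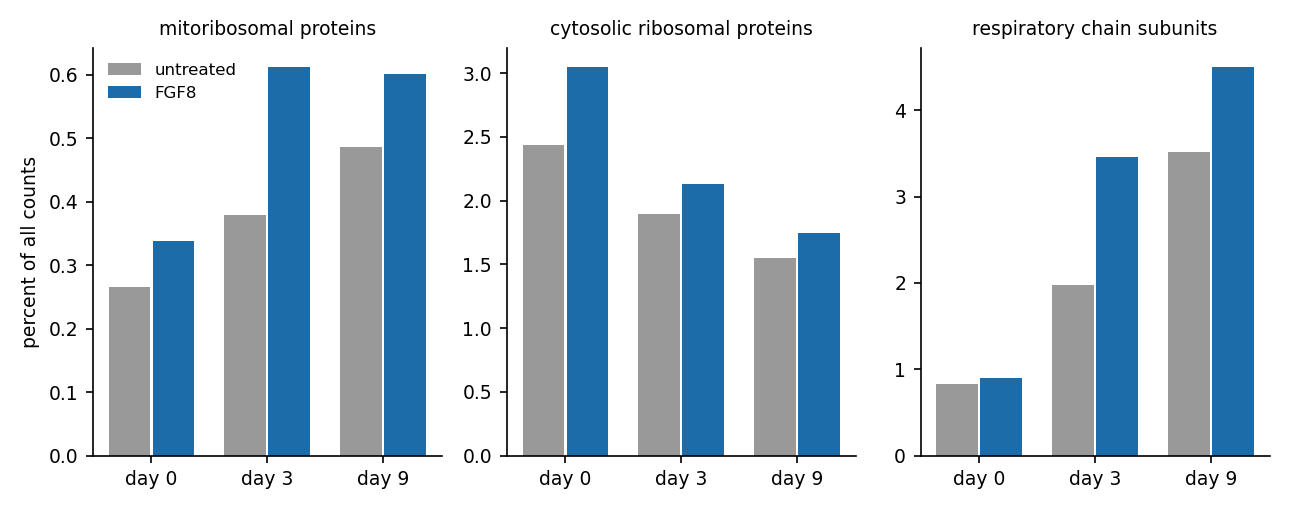
Percent of all counts per library held by mitoribosomal proteins (left), cytosolic ribosomal proteins (middle) and respiratory chain subunits (right) in untreated (grey) and FGF8 (blue) libraries of days 0, 3 and 9, each bar 1 library and each panel with its own axis from 0. The mitoribosomal share was 0.612% and 0.601% in the FGF8 libraries of days 3 and 9, above the 0.379% and 0.486% of the untreated libraries.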

How the data were processed

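Per the labels and the study's methods, stranded polyA libraries were sequenced as paired ends, trimmed with TrimGalore, aligned with HISAT2 to GRCm39 and counted per gene with featureCounts. The authors deposited whole-number counts, 1 file per library. The versions, the gene annotation, whether counting used strand and how multi-mapping reads were treated are not given in the sources used here. Libraries were grouped by their labels.

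Normalized counts used the median-of-ratios factors of DESeq2 1.42.0 over the 6 libraries. FGF8 and untreated libraries of a day were compared as differences of log2(normalized count + 1) for genes averaging 20 normalized counts or more in the pair, with 95% exact binomial intervals of the count ratio, which cover counting error only. With 1 library per condition no p-value belongs to such a difference. The effect shared by the days and the changes between days were tested with edgeR 4.0.16 in R 4.3.3 (quasi-likelihood, TMM, filterByExpr, day and treatment as terms, 2 residual degrees of freedom, Benjamini-Hochberg adjustment over all genes). Whether the libraries came from separate cultures is not stated, so p-values measure the spread between libraries only. Both steps were tested on simulated data. Symbols were matched to GENCODE M39, where 91.0% were found.

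Members and lists were chosen with earlier results of these data known. The members given in detail were the 4 highest and 4 lowest differences of each day, the 3 smallest p-values of the shared effect, the 5 largest called changes per direction between days, the 5 highest and 5 lowest levels per kilobase, the 5 profiles farthest from the median profile and the Mrps18 paralogs. Other genes were named after their values were seen. Other scalings, filters, pseudocounts and fold thresholds, DESeq2's Wald test and leaving out single libraries were tried.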

Additional observations from a re-analysis of the deposited data

Results flagged for a closer look

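Of the 78 members, 3 differed in opposite directions on different days, each beyond its counting interval: they were lower in the FGF8 library at day 0 and higher at days 3 and 9. Mrpl30 had log2 fold changes of -0.16, 0.90 and 0.38 at days 0, 3 and 9. Mrpl36 had -0.31, 0.75 and 0.29. For Mrps21 the values were -0.33, 0.54 and 0.24. Each day is 1 library per treatment, so the difference between days was not tested.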

How the results depend on the processing

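No called result changed direction, while the median of FGF8 day 9 against day 3 went from 0.057 to -0.014 with total counts. Of 219 checks on the counts, medians and shares, 185 kept their side of the threshold or moved by no more than a set limit. For medians this limit was the median half-width of the members' counting intervals, which cover counting error only and no spread between cultures. Scaling by total counts moved the median of all genes by -0.11 for FGF8 at day 3, by -0.14 and -0.19 for untreated day 9 against days 3 and 0, and by -0.21 and -0.28 for FGF8 days 3 and 9 against day 0. Under it the members' medians were 0.32 and 0.81 for untreated day 9 against days 3 and 0 and 0.89 and 0.84 for FGF8 days 3 and 9 against day 0. TMM factors moved all genes by 0.10 for untreated day 3 against day 0, and no filter on low values moved them by 0.16 for untreated day 9 against day 0 and by 0.10 for FGF8 day 3 against day 0. The number of members higher on all 3 days was 67 with TMM factors, 68 with total counts and 64 with size factors from each pair.

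A 2-fold threshold left 0, 6 and 0 members higher at days 0, 3 and 9. Of all genes it left 920 of 12657, 490 of 12892 and 146 of 13070 higher. A log2 threshold of 0.32 gave 35 members higher and 1 lower at day 0 and 36 higher at day 9. The upper quartile of all genes was 0.41 at day 0, above that threshold, and 0.29 at day 9, below it. Their lower quartile at day 0 was -0.36. The single member past 1.5-fold at day 9 became 2 with TMM factors and 0 with total counts or with size factors from each pair. Without Mrps36, an alternative chosen after seeing the data, the medians were 0.30, 0.75 and 0.30 and the counts past 1.5-fold 12, 67 and 1.

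DESeq2's Wald test called 14 members for the shared effect of FGF8 and 1 from day 3 to day 9. Leaving out a day gave 0 to 26 members for the shared effect, the highest without day 0. Leaving out 1 library took its whole day out of that comparison, so those fits were no separate check. Leaving out a library also gave 8 to 52 members higher and 0 to 2 lower from day 0 to day 3. It gave 0 to 10 higher from day 3 to day 9, and 25 to 65 higher from day 0 to day 9. The shares of all genes called in the fits with 8, 10 and 25 members are given above, and they changed with the library left out as well. The 52 and 65, and the members called lower, have no such share beside them and are not read as a result about the members. The 2 members lower at day 3 became 1 with no filter on low counts and 0 with no treatment block. The causes were not tested. Without the 100 highest genes in the total, the members took 0.301%, 0.458% and 0.624% of counts in untreated and 0.376%, 0.743% and 0.755% in FGF8 libraries of days 0, 3 and 9.

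The fit for the shared effect pairs the libraries by day, and without the day block 0 members were called and 0 reached an unadjusted p under 0.05. The labels give no replicate numbers to pair by. The depth of 16403254 to 38551551 counts gave a median half-width of the members' intervals of 0.16, 0.12 and 0.087 log2 units at days 0, 3 and 9, so smaller differences were not detectable for the median member. The spread between cultures is not known at any day, and 1 residual degree of freedom was left where a library was left out.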
